A study of Homo sapiens with 4 samples.

Results

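ETS transcription factors share a winged helix-turn-helix DNA-binding domain, the ETS domain, and 10 of their genes that are used by blood cells were followed here in 4 human leukemia cell lines. The genes were ERG, FLI1, ETS1, ETS2, ELF2, ELF4, SPI1, SPIB, ELK3 and GABPA. They were taken by symbol from the deposited gene table, where all 10 were found among 23368 entries. All 4 lines derive from precursor-B acute lymphoblastic leukemia, and a single RNA library was sequenced from each. RS4;11 and SEM carry the chromosome translocation t(4;11), which rearranges the MLL gene, and NALM6 and REH lack it and served as controls. The cultures were kept in RPMI with fetal bovine serum, were harvested below confluency and received no agent. Each line is an established culture from a single leukemia, so a difference between the groups includes every other difference between these leukemias. From background knowledge of the lines, NALM6 carries a DUX4 rearrangement and REH carries the ETV6-RUNX1 fusion.

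ETS factors bind DNA at a GGAA core and differ in their flanking bases and their partners. ERG and FLI1 maintain blood stem cells, and FLI1 is also needed for megakaryocytes. ETS1 and ETS2 are close relatives that respond to RAS and MAPK signalling, and ETS1 is abundant in lymphocytes. SPI1 encodes PU.1, which directs myeloid and early B-cell development, and SPIB encodes its B-cell relative Spi-B. ELF2 and ELF4 belong to the ELF group, ELK3 is a ternary complex factor that binds beside serum response factor, and GABPA is the DNA-binding subunit of GABP, which serves many housekeeping and mitochondrial genes.

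The libraries held between 33620574 (SEM) and 84212986 (REH) counts, and 3 counts corresponded to between 0.0356 and 0.0892 CPM (counts scaled to a library of the same nominal size in every line). Of 10 B-lineage markers all were detected in every line, with a summed level between 1191 CPM (SEM) and 3962 CPM (NALM6). Some were scarce in a line, such as BLNK in SEM (6 counts, 0.178 CPM) and VPREB1 in REH (19 counts, 0.226 CPM). CD24 alone gave 1895 CPM in NALM6 and 6.01 CPM in SEM. CD24, CD79B, VPREB3 and BLNK of these 10 markers were called lower with t(4;11) in at least 1 of the authors' deposited tables. The lower calls numbered 2 in the DESeq table and 4 in the Cuffdiff table, which called 1.56% and 2.34% of all genes. By edgeR's quasi-likelihood test 0 of these 10 were called. Of 10 markers each, 6 myeloid, 9 T and NK cell, 8 erythroid and megakaryocyte and 7 endothelial markers stayed at or under 5 CPM in every line. The summed levels were 15.3 to 52.0 CPM for myeloid markers, 1.14 to 26.2 CPM for T and NK cell markers, 6.02 to 15.5 CPM for erythroid and megakaryocyte markers and 78.8 to 167 CPM for endothelial markers. The markers above 5 CPM in some line were, with their highest levels, MPO (34.2 CPM in REH), CSF1R (33.3 in SEM), CD33 (11.1 in SEM) and LYZ (8.14 in NALM6) of the myeloid list and NKG7 (26.1 in RS4;11) of the T and NK cell list. They were GP1BA (7.30 in REH) and ITGA2B (6.79 in RS4;11) of the erythroid and megakaryocyte list, and ESAM (41.0 in NALM6), PECAM1 (15.2 in SEM) and ENG (64.6 or more in every line) of the endothelial list. CD3D, CD3E, ELANE, HBB and PF4 had 0 counts in every line, and CDH5 stayed at or under 0.0223 CPM. The part of other cell types' transcripts in the results below was not tested. Transcripts of DUX4 had 0 counts in every line, NALM6 included, and near-identical copies of that gene exist, so the table gives no check of its rearrangement. MLL, whose counts do not show the fusion, had 455 and 265 CPM with t(4;11) and 325 and 334 CPM without.

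None of the 10 ETS genes was called different between lines with and without t(4;11). By edgeR's quasi-likelihood test 0 of 10 had an adjusted p under 0.05, against 0.0% of the 13844 genes tested. No member reached an unadjusted p under 0.05 either, against 12.0% of all genes (6.18% higher and 5.87% lower), and the smallest was 0.0768 for ELK3. DESeq2 (11.2% of its genes called), edgeR's exact test (3.19%) and the authors' deposited DESeq table (1.56%) and Cuffdiff table (2.34%) also called 0 of the 10. The median log2 fold change of the members, t(4;11) over control, was -0.26, with 3 positive and 7 negative, and that of all genes tested was -0.02. Without REH the members' median was 0.05. An exact permutation test of 2 lines against 2 cannot give a two-sided p below 0.333.

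The lines within a group often differed as much as the groups did. The median absolute log2 difference between RS4;11 and SEM was 0.65 for the members and 0.32 for all genes tested, and that between NALM6 and REH was 0.30 and 0.43. Between the group means it was 0.69 and 0.41. For 1 of the 10 members the difference between the group means exceeded both differences within the groups, against 33.6% of all genes tested. This member was SPI1, the gene that varied least, and by TMM-scaled CPM the count was 0 of 10, against 33.9% of all genes. In each line a lower level per cell and fewer cells with the transcript cannot be told apart. The fold span from the lowest to the highest line ranged from 1.19 for SPI1 to 32.8 for SPIB. Of all genes tested, 4.62% had a smaller span than SPI1 and 93.4% a smaller span than SPIB.

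**Figure D1:**
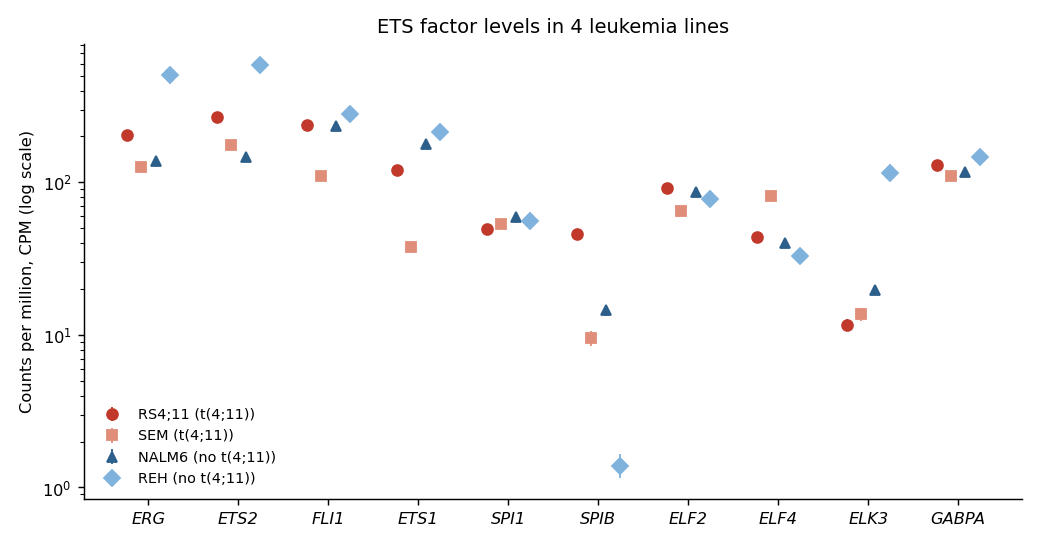
Level of each ETS gene in each line as CPM on a log scale; circles and squares are the t(4;11) lines, triangles and diamonds the controls, and bars are exact Poisson 95% intervals that cover counting error only. ERG, ETS2 and ELK3 stand highest in REH, SPIB spans 32.8-fold and SPI1 only 1.19-fold.

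**Figure D2:**
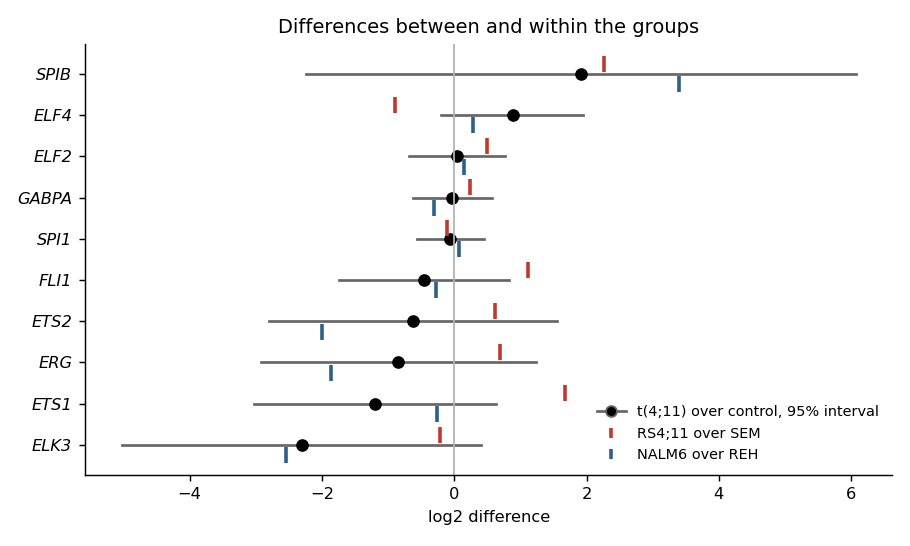
The log2 fold change of t(4;11) over control by edgeR with its 95% interval (dot and line), beside the log2 difference of RS4;11 over SEM and of NALM6 over REH (ticks). Every interval includes 0, and the SPIB ticks lie at 2.27 and 3.39.

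ERG and ETS2, neighbours on chromosome 21, were both highest in REH. RS4;11 held 205 CPM of ERG, SEM 127, NALM6 139 and REH 504. For ETS2 the levels were 268, 175, 146 and 586 CPM in that order of lines, which is kept below. The controls thus held the highest line of each gene and also, for ETS2, the lowest, and the groups overlapped for both. REH had 3.63-fold more ERG than NALM6 (95% interval 3.54 to 3.73) and 4.01-fold more ETS2 (3.90 to 4.11), intervals that cover counting error only. The group means of ERG were 166 ± 54.8 CPM with t(4;11) and 321 ± 258 CPM without (SD, n = 2 each). The fitted log2 fold change of ERG was -0.85 (SE 0.73, 95% interval -2.93 to 1.23, edgeR adjusted p = 0.683). For ETS2 it was -0.62 (SE 0.76, 95% interval -2.80 to 1.55, edgeR adjusted p = 0.779). Both turned positive without REH, to 0.36 and 0.70. They were -1.5 and -1.3 without NALM6, -1.24 and -0.97 without RS4;11, and -0.52 and -0.32 without SEM.

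The levels of ERG and ETS2 followed each other closely over the 4 lines. ERG gave between 0.728 counts (SEM) and 0.947 counts (NALM6) per count of ETS2. When each gene's log2 level was set against its own mean over the lines, ETS2 was number 23 in nearness to ERG among the other 13843 genes tested, and ERG was number 17 in nearness to ETS2. These ranks rest on 4 libraries that both genes share. ERG occupies chromosome 21 from 39739183 to 40033704 and ETS2 from 40177231 to 40196878 (hg19), with 144 kb between them.

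The reference lists several start sites for these genes, and counts per gene do not separate transcripts from different starts. The 300 bases from 250 before to 50 after a start, in RefSeq on GRCh38.p14, are shown for 2 of the 4 listed starts of ERG and 1 of the 2 of ETS2 because this pair moved together, and for GABPA as a member whose level hardly varied. Capitals mark GGAA or its reverse complement TTCC.
ERG, first start, chr21:38660618-38660917, minus strand: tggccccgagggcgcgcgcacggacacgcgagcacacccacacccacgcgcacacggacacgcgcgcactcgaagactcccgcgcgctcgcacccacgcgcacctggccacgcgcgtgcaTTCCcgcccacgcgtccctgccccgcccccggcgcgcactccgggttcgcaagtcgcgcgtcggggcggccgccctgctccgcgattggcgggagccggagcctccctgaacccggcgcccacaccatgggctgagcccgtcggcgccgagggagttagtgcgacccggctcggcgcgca
ERG, an internal start, chr21:38584896-38585195, minus strand: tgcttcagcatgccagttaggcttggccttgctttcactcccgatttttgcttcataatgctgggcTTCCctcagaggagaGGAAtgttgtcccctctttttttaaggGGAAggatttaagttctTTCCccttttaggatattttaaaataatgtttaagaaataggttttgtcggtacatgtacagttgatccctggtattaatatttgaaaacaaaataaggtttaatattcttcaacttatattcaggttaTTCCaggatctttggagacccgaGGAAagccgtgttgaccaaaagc
ETS2, chr21:38805679-38805978, plus strand: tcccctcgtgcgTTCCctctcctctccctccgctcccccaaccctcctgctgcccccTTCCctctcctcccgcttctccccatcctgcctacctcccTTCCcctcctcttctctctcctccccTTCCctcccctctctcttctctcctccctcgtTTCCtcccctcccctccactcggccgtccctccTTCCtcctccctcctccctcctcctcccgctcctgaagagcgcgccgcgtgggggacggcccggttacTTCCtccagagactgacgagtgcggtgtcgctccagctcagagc
GABPA, chr21:25734722-25735021, plus strand: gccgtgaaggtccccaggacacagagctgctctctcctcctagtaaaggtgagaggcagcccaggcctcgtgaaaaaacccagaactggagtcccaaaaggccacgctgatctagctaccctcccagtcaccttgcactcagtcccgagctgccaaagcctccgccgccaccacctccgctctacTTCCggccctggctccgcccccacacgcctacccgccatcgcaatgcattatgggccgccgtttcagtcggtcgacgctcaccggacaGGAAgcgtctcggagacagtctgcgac
The first ERG start has 1 such core, the internal start shown 6, the ETS2 start shown 7 and GABPA 2. The starts not shown have fewer than these highest numbers, with 2 cores at each of the other ERG starts and 4 at the other ETS2 start. A core of 4 letters is common: 95.5% of all 35116 promoters of this length hold it on either strand, with a median of 3 matches. The longer motif CCGGAAG (or CTTCCGG on the other strand), which contains the core, was in 10.3% of all promoters. It was found in 1 of the 15 promoters listed for 7 members, that of GABPA. Promoters of FLI1, ETS1 and SPI1 were not used here. A match describes the letters only.

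Other genes of the same stretch of chromosome 21 were also mostly highest in REH. Of 17 further tested genes whose locus begins within 2 Mb of ERG and ETS2, 15 (88.2%) had their highest level in REH. The share was 41.0% over the 117 tested genes of chromosome 21 that are neither members nor these neighbours, and 32.3% over all genes tested. The median log2 level in REH relative to the mean of the 4 lines was 0.54 near ERG and ETS2, 0.23 over those 117 genes and 0.05 over all genes. ERG itself stood at 1.28 and ETS2 at 1.22 on that scale. LINC00114, a noncoding gene between them, stood at 1.60, with 5.66 CPM in REH and 0.0446 CPM in NALM6. REH was also the deepest library. The part of the neighbourhood and of depth in the REH levels of ERG and ETS2 was not tested.

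**Figure D3:**
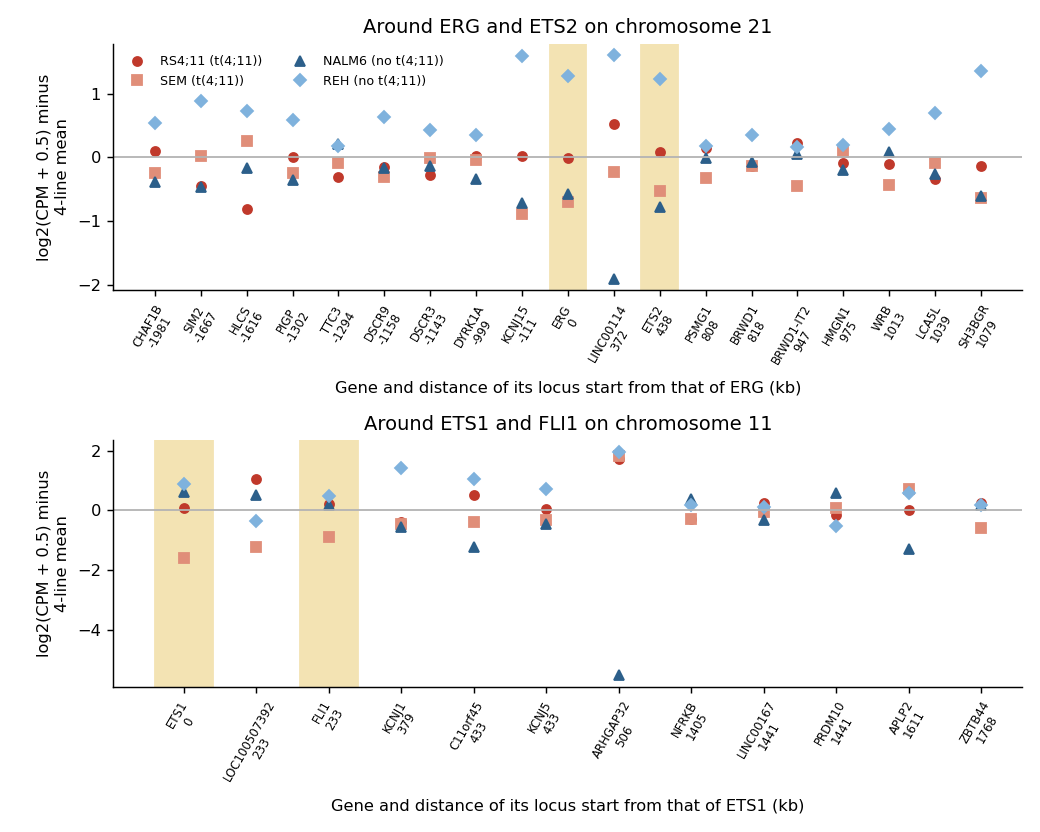
Log2(CPM + 0.5) of each line minus the mean of the 4 lines, for tested genes around ERG and ETS2 (upper) and around ETS1 and FLI1 (lower), in order along the chromosome with the distance of each locus start in kb; members are shaded. REH is highest for 15 of the 17 genes beside ERG and ETS2, and SEM is lowest for ETS1 and FLI1.

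FLI1 and ETS1, neighbours on chromosome 11, were both lowest in SEM. RS4;11 held 237 CPM of FLI1, SEM 109.5, NALM6 234 and REH 282. The ETS1 levels were 121, 37.9, 179.5 and 215 CPM. FLI1 was therefore at the control level in RS4;11 and the groups overlapped, while the ETS1 levels of RS4;11 and SEM were both below those of NALM6 and REH. ETS1 had group means of 79.6 ± 59.0 CPM and 197 ± 25.3 CPM (SD, n = 2 each). The fitted log2 fold change of ETS1 was -1.20 (SE 0.64, 95% interval -3.03 to 0.63, edgeR adjusted p = 0.536). In the authors' deposited tables ETS1 had an unadjusted p of 0.0482 by DESeq (adjusted p = 0.838) and of 0.0112 by Cuffdiff (q = 0.217). FLI1 had a log2 fold change of -0.46 (SE 0.45, 95% interval -1.75 to 0.82, edgeR adjusted p = 0.719). The t(4;11) lines differed 3.20-fold in ETS1 (95% interval 3.02 to 3.41) and 2.17-fold in FLI1 (2.09 to 2.25), both higher in RS4;11. Without SEM the log2 fold change was -0.58 for ETS1 and 0.01 for FLI1, and without RS4;11 it was -2.29 and -1.14.

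FLI1 and ETS1 followed each other less closely than ERG and ETS2 did in this description. FLI1 gave 1.30 and 1.31 counts per count of ETS1 in NALM6 and REH, 1.96 in RS4;11 and 2.89 in SEM. On the nearness scale used above, FLI1 was number 266 of 13843 from ETS1, and ETS1 was number 2936 from FLI1. ETS1 occupies chromosome 11 from 128328656 to 128457453 and FLI1 from 128561567 to 128683162 (hg19), with 104 kb between them. Both lie 9.93 Mb or more beyond the end of MLL, on the part of the long arm that t(4;11) moves. The 85 other tested genes beyond MLL had a median log2 fold change of -0.06, the 696 genes before it 0.07. Of 10 further tested genes within 2 Mb, 3 were lowest in SEM and 6 in NALM6, against 26.8% and 23.4% of all genes tested. LOC100507392, which shares the Cuffdiff locus of FLI1, had 5.69, 0.773, 3.81 and 1.84 CPM. From background knowledge the TruSeq RNA kit named in the labels does not mark strand, and how strand was counted is not given, so reads of genes that share a locus cannot be told apart.

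SPI1 was nearly constant and SPIB was the most variable member. RS4;11 held 49.5 CPM of SPI1, SEM 53.3, NALM6 58.9 and REH 56.2. Both t(4;11) lines were below both controls by column-sum CPM, but the groups overlapped by TMM-scaled CPM and by the authors' normalized counts. Its log2 fold change was -0.06 (SE 0.18, 95% interval -0.57 to 0.45, edgeR adjusted p = 0.916), and it lay between -0.16 and -0.01 over all alternatives. Of SPIB, RS4;11 held 45.6 CPM, SEM 9.49, NALM6 14.5 and REH 1.39 (117 counts, 95% interval 1.15 to 1.67 CPM). RS4;11 was the highest line and REH the lowest, and SEM lay between the controls. For SPIB the log2 fold change was 1.91 (SE 1.46, 95% interval -2.25 to 6.07, edgeR adjusted p = 0.646). It became 4.42 without NALM6, 1.03 without REH and 0.35 without RS4;11. In the authors' deposited tables SPIB had an unadjusted p of 0.049 by Cuffdiff (q = 0.473) and of 0.189 by DESeq. SPI1 gave 1.08 counts per count of SPIB in RS4;11 and 40.4 in REH, with 5.62 in SEM and 4.05 in NALM6. SPI1 lies on chromosome 11 from 47376409 to 47400127 and SPIB on chromosome 19 from 50922195 to 50934309 (hg19).

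PU.1 and Spi-B bind many B-cell and myeloid elements together with IRF4 and IRF8. The IRF4 levels were 203, 67.3, 414 and 2.13 CPM. IRF8 had 27.7, 139.7, 2.05 and 33.1 CPM. REH thus had the lowest level of both SPIB and IRF4, and NALM6 the lowest of IRF8; these partners were picked out after their values were seen. Of 18 known target genes of PU.1 and Spi-B, 15 were tested, with a median log2 fold change of -0.56 (5 positive and 10 negative). None of these 15 reached an adjusted p under 0.05 by the quasi-likelihood test of edgeR. An unadjusted p under 0.05 was found for 2 of the 15, both lower with t(4;11). Among all genes tested the share with such a p was 12.0%, with 5.87% lower. Lower calls numbered 2 in the authors' deposited DESeq table and 1 in their deposited Cuffdiff table, which also made 2 higher calls. Over all genes, calls in either direction made up 1.56% in the DESeq table and 2.34% in the Cuffdiff table. CYBB, a subunit of the phagocyte oxidase, gave 6 counts (0.116 CPM) in RS4;11 and 4 (0.119 CPM) in SEM, and 110.3 CPM in NALM6 and 99.8 CPM in REH (edgeR adjusted p = 0.0507; adjusted p = 6.3e-34 in the authors' deposited DESeq table). CD79B, a signalling chain of the B-cell receptor, measured 122 CPM in RS4;11, 9.73 in SEM, 305 in NALM6 and 406 in REH, and it was called lower in both deposited tables. FLT3, a receptor tyrosine kinase, and PTPRC, the phosphatase CD45, were called higher in the authors' deposited Cuffdiff table only. PTPRC had 674 CPM in RS4;11 but 93.4 CPM in SEM, which lay between NALM6 (44.9 CPM) and REH (209 CPM).

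ELF4 stood above both controls in each line with t(4;11), and ELF2 was similar in all lines. ELF4, which acts in natural killer cell development and in the exit of blood stem cells from rest, measured 44.1 CPM in RS4;11, 81.7 in SEM, 40.3 in NALM6 and 33.1 in REH. The groups did not overlap, but RS4;11 was close to NALM6 and SEM stood apart. The group means were 62.9 ± 26.6 CPM and 36.7 ± 5.06 CPM (SD, n = 2 each), and the log2 fold change was 0.88 (SE 0.38, 95% interval -0.20 to 1.95, edgeR adjusted p = 0.472). It was 0.39 without SEM. ELF2 had 92.3, 65.3, 86.2 and 78.2 CPM, with both controls between the t(4;11) lines. The ELF2 log2 fold change was 0.04 (SE 0.25, 95% interval -0.68 to 0.77, edgeR adjusted p = 0.958) and -0.06 with plain column sums. ELF4 lies on chromosome X from 129198895 to 129244688 and ELF2 on chromosome 4 from 139978871 to 140060606 (hg19). ELF1, the relative of both that is abundant in lymphocytes and is no member, measured 556, 421, 291 and 361 CPM (log2 fold change 0.69, SE 0.25, edgeR adjusted p = 0.420).

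ELK3 stood far higher in REH than in the other lines, and the size of its group difference rested on REH. RS4;11 held 11.7 CPM of ELK3, SEM 13.7, NALM6 19.6 and REH 115. Both t(4;11) lines were below both controls, with NALM6 nearer to them than to REH. The group means were 12.7 ± 1.38 CPM and 67.2 ± 67.3 CPM (SD, n = 2 each). The log2 fold change was -2.31 (SE 0.95, 95% interval -5.03 to 0.41, edgeR adjusted p = 0.461), and without REH it was -0.53. The authors' deposited Cuffdiff table gave an unadjusted p of 0.00500 and a q of 0.130. REH exceeded NALM6 5.86-fold (95% interval 5.47 to 6.29, counting error only). ELK3 lies on chromosome 12 from 96588207 to 96661606 (hg19).

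SRF, the serum response factor to which ELK3 binds, was level, at 83.1, 74.3, 83.1 and 75.1 CPM. Of 10 serum response genes, which ternary complex factors control in many cells, all were tested, with 6 positive and 4 negative and a median log2 fold change of 0.18. None was called by edgeR's quasi-likelihood test or in either deposited table. Against 12.0% of all genes tested, 1 of the 10 had an unadjusted p under 0.05. This gene was EGR1, at 3.74, 13.7, 0.959 and 1.19 CPM (log2 fold change 3.11, SE 0.90, edgeR adjusted p = 0.381).

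GABPA varied little. RS4;11 held 129.9 CPM, SEM 110.4, NALM6 117 and REH 146, and the groups overlapped. Its log2 fold change was -0.03 (SE 0.21, 95% interval -0.63 to 0.57, edgeR adjusted p = 0.968). GABPA lies on chromosome 21 from 27096791 to 27144771 (hg19), far from ERG and ETS2. GABPB1, the beta subunit that carries the activation domain of GABP, measured 98.1, 74.2, 65.2 and 54.5 CPM (log2 fold change 0.63, SE 0.25, edgeR adjusted p = 0.443). GABPA gave 1.32 counts per count of GABPB1 in RS4;11, 1.49 in SEM, 1.8 in NALM6 and 2.68 in REH. GABPB2, the other beta subunit gene, stayed between 5.97 and 9.36 CPM.

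Of 12 mitochondrial genes known as GABP targets all were tested, and 9 had a positive log2 fold change (median 0.39). edgeR's quasi-likelihood test and both deposited tables called 0 of them. Only COX7A2 and COX7C, 2 of the 12, had an unadjusted p under 0.05, both higher. Among all genes tested 12.0% had such a p, 6.18% higher. By TMM-scaled CPM 7 of the 12 lay above both controls in each line with t(4;11) and 0 below, where 24.2% of all genes tested were higher and 23.4% lower. By column-sum CPM 7 were higher and 3 lower, against 19.0% and 28.3% of all genes. COX7C, a subunit of cytochrome c oxidase, measured 172, 166, 131 and 130 CPM. TFAM, which packages mitochondrial DNA and helps to start its transcription, measured 118, 134, 92.7 and 55.5 CPM (log2 fold change 0.87, SE 0.31, edgeR adjusted p = 0.419) and is named with its values known.

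By the same measure 4 of the 10 ETS members had groups that did not overlap by column-sum CPM (ELF4 higher; ETS1, ELK3 and SPI1 lower), against 47.3% of all genes tested. By TMM-scaled CPM there were 3, without SPI1, against 47.6%. The share of higher genes among all genes without overlap was 40.1% by column sums and 50.8% by TMM, and plain column sums moved the median log2 fold change of all genes by -0.10.

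Levels of different genes were compared by the authors' Cuffdiff FPKM, which is scaled by gene length and summarised per group, with no spread between lines. In the control group the order of the members was ETS2 (95.9 FPKM), FLI1 (65.0), ERG (64.8), SPI1 (43.8), ETS1 (36.5), ELK3 (32.1), GABPA (26.4), ELF2 (25.3), ELF4 (8.73) and SPIB (2.22). In the t(4;11) group it was ETS2 (62.0), FLI1 (46.6), SPI1 (41.7), ERG (36.1), ELF2 (26.0), GABPA (25.9), ETS1 (15.9), ELF4 (15.9), SPIB (8.30) and ELK3 (6.43). ETS2 and FLI1 led both orders. SPIB was last in the controls and ELK3 last with t(4;11). The control places of ETS2, ERG and ELK3 include the high levels of REH. REH held 586 CPM of ETS2, 504 of ERG and 115 of ELK3, and NALM6 146, 139 and 19.6 CPM. The order within a single line can therefore differ from that of its group. FLI1 and ERG in the controls, ELF2 and GABPA in both groups, and ETS1 and ELF4 with t(4;11) differed by less than the differences between lines reported above for these genes. Over all 28 ETS genes the members made up 55.1% of the summed FPKM with t(4;11) and 71.1% without. By counts, not scaled by length, their share of the family was 56.4% in RS4;11, 45.9% in SEM, 58.6% in NALM6 and 73.8% in REH, so NALM6 was close to RS4;11 and REH stood apart. ELF1 alone gave 26.8% and 15.3% and was the highest ETS gene of the t(4;11) group at 138 FPKM.

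**Figure D4:**
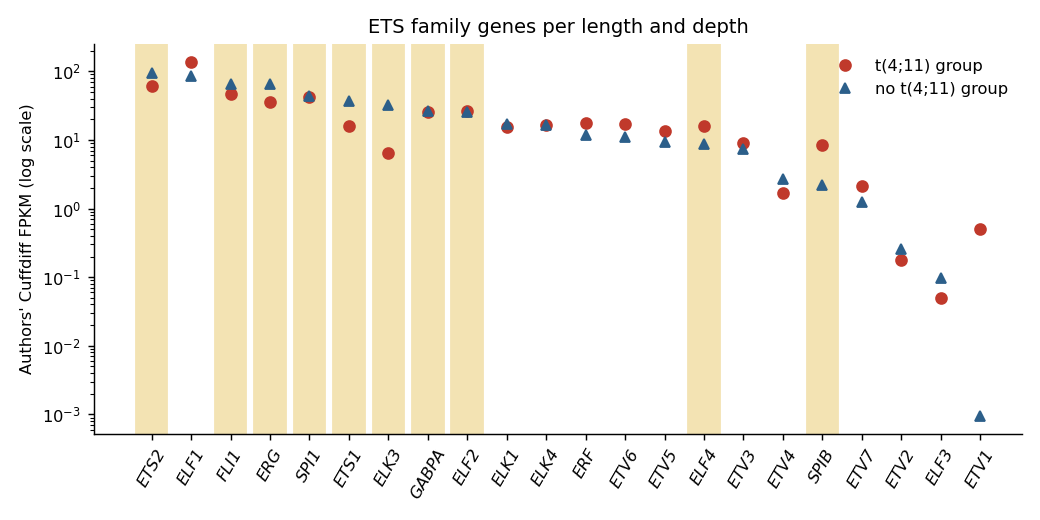
The authors' Cuffdiff FPKM of each ETS family gene in each group on a log scale, ordered by the control group; members are shaded, and genes listed at 0 in a group are not drawn. Most members stand among the higher genes of the family, with SPIB at 8.30 and 2.22 FPKM at the low end.

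The other 18 ETS genes were likewise not called. Of 11 that were tested, 7 had a positive and 4 a negative log2 fold change (median 0.32). By edgeR's quasi-likelihood test 0 were called, with 0 in either deposited table. At an unadjusted p under 0.05 there were 0, against 12.0% of all genes tested. ELF5, EHF, FEV and SPIC, which belong mainly to epithelia, neurons and macrophages, had 0 counts in every line. ETV6, a repressor needed by blood stem cells, measured 82.6 CPM in RS4;11, 111 in SEM, 125 in NALM6 and 8.02 in REH. NALM6 had 15.5-fold more of it than REH (95% interval 14.4 to 16.9, counting error only). REH was thus low in ETV6 and high in ERG, ETS2 and ELK3. The part of its ETV6-RUNX1 fusion in these levels was not tested. It cannot be told apart from other traits of this single line, and counts per gene do not show the fusion. ETV5, a gene induced by RAS and MAPK signalling, was low in NALM6 alone, at 4.57 CPM against 48.5, 55.7 and 72.5 CPM in RS4;11, SEM and REH. ETV1 had 6.60 CPM in SEM and at most 0.0119 CPM elsewhere; both were picked out after their values were seen.

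Among 16 partner proteins of ETS factors, RUNX1 was the only gene called in a deposited table, in both of them. RUNX1, which binds DNA together with ETS1 and with ERG and FLI1, measured 586 CPM in RS4;11, 794 in SEM, 194 in NALM6 and 285 in REH. Both t(4;11) lines were well above both controls. In REH, counts per gene do not separate transcripts of RUNX1 from those of its fusion with ETV6. The RUNX1 log2 fold change was 1.62 (SE 0.30, 95% interval 0.76 to 2.49, edgeR adjusted p = 0.313; adjusted p = 0.0266 in the authors' deposited DESeq table and q = 0.0295 in their deposited Cuffdiff table). Of the 14 partners tested, 10 had a positive and 4 a negative log2 fold change, with a median of 0.20, and edgeR's quasi-likelihood test called 0. LYL1, which joins ERG and FLI1 in blood stem cells, had between 31.6 and 53.4 CPM. TAL1 and GATA2, partners in the same complex, stayed at or under 0.0193 and 0.166 CPM. LMO2, another of the 16, had 35.7 CPM in RS4;11, 115 in SEM, 17.5 in NALM6 and 25.4 in REH. The LMO2 log2 fold change was 1.90 (SE 0.67, 95% interval -0.01 to 3.81, edgeR adjusted p = 0.415). PAX5, with which ETS1 binds the CD79A promoter, measured 273, 419, 404 and 254 CPM, and the groups overlapped.

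**Figure D5:**
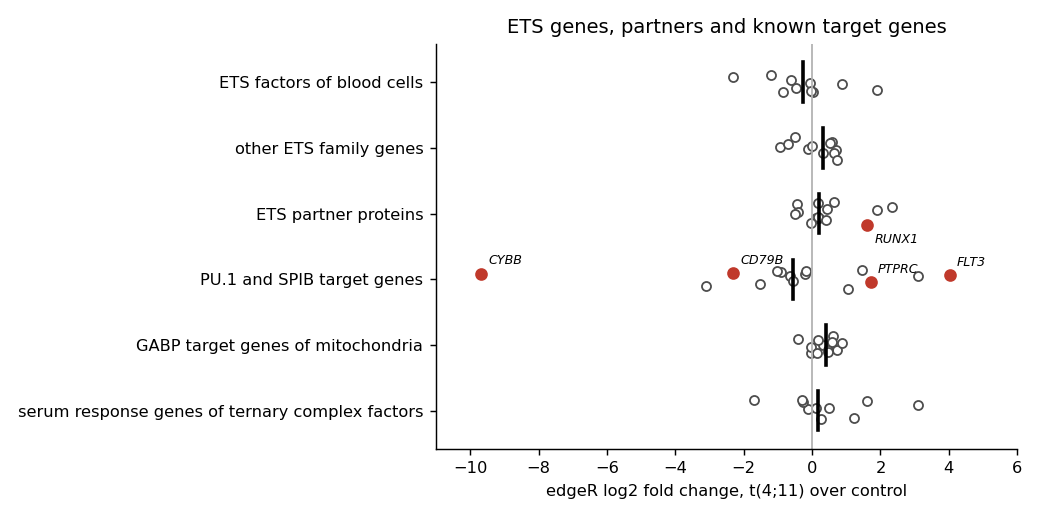
The log2 fold change of t(4;11) over control by edgeR for each tested gene of 6 lists; bars are medians, filled points are genes called in either of the authors' deposited tables and open points the rest. No ETS gene is filled, and the medians lie between -0.56 and 0.39.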

How the data were processed

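RNA was measured in 4 cell lines, 1 library each, grouped by the labels into t(4;11) (RS4;11 and SEM) and no t(4;11) (NALM6 and REH). Nothing pairs the lines, and p-values measure only the spread between these lines. Per the submitters' processing notes, the tools were TopHat2 2.0.4 and TopHat, CASAVA 1.8.2, Cuffdiff, DESeq and HTSeq, with build hg19; their settings, annotation and strand handling were not given in the sources used here. HTSeq counts per gene were deposited by the authors, with DESeq normalized counts (a signal: the count divided by a size factor). Per the file headers, they also deposited fold changes as a ratio, p-values with adjusted p-values or q-values, and Cuffdiff FPKM per group. Fold changes were turned to t(4;11) over control.

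CPM is the count over the column sum. Deposited counts were tested in edgeR 4.0.16 under R 4.3.3 (filterByExpr, TMM, the two-sided quasi-likelihood test of glmQLFit and glmQLFTest). The Benjamini-Hochberg adjustment ran over 13844 genes, with threshold 0.05, and 2 residual degrees of freedom. The SE is the fold change over the square root of F, and its interval uses the fit's total degrees of freedom. Intervals at 95% (exact Poisson for a level, exact binomial for a ratio) cover counting error only, since each line has 1 library. They take reads as independent molecules, which reads are not, so they can be too narrow. DESeq2 1.42.0, other scalings and filters and leaving out each line were alternatives. The test was also run on counts simulated with the same dispersion for every gene. No result here rests on that run, and it does not measure the power of the test in these lines. Coordinates are Cuffdiff loci with the start counted from 1; the start that was deposited was taken as counted from 0.

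All 10 members were named whatever their values. Of the lists, genes called in edgeR or a deposited table were named (up to 6 per list), with GABPB1, GABPB2, ETV6 and ELF1, and for members spanning 8-fold or more the 3 genes nearest in log2(CPM + 0.5); any other gene was chosen to be named with its values in view. The members and the 11 lists were chosen with earlier results of these data known. Protein sequences were not used here. Promoters were from RefSeq and matched 7 of 10 members by symbol. Figures were drawn with matplotlib 3.10.9.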

Additional observations from a re-analysis of the deposited data

How the results depend on the processing

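No paired analysis was possible because the labels give the lines no numbers that pair them. The members called stayed at 0 under all 12 alternatives. The count of all genes called, 0 by edgeR's quasi-likelihood test (1668 at an unadjusted p under 0.05), was 5 with no filter on low counts, 4 with at least 1 CPM in 2 lines, 441 by edgeR's exact test, 1586 by DESeq2, 288 in the authors' deposited DESeq table and 332 in their deposited Cuffdiff table. The count of called genes in the other lists, 0, became 1, 1, 4, 15, 4 and 7 in the same order. Leaving out each line gave 0 called genes throughout, in a fit that takes the lone line to vary like the other group. The members' median log2 fold change ranged from -0.60 (without RS4;11) to 0.05 (without REH), where it changed sign. ETS1, ELF4, SPI1, SPIB and ELK3 kept their sign under all 12. With a line left out ERG ranged from -1.5 to 0.36 and ETS2 from -1.3 to 0.70, both positive only without REH. FLI1 ranged from -1.14 to 0.01 (without SEM), GABPA from -0.18 to 0.13, positive without SEM (0.11) and without REH (0.13), and ELF2 from -0.23 (without RS4;11) to 0.29, also negative without REH (-0.03) and with plain column sums (-0.06). The cause was not tested. Of 80 comparisons of a member's level in a line under TMM or the authors' scaling, 2 moved by at least 1 SD of the group, both for SPI1. The 1 member that differed more between than within the groups was lost (0) by TMM-scaled CPM, an alternative chosen after seeing the data.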

Other observations

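For the members that spanned 8-fold or more, the genes with the most similar levels over the 4 lines were sought by the Euclidean distance of log2(CPM + 0.5). Nearest to ELK3 was TLE1, a corepressor of the Groucho family, at 15.5 CPM in RS4;11, 12.8 in SEM, 15.2 in NALM6 and 105 in REH (distance 0.55). CYTH3, an exchange factor for ARF GTPases, had 14.0, 13.4, 25.9 and 81.4 CPM, and RRAGD, a GTPase that acts upstream of mTORC1, had 13.6, 15.0, 29.7 and 91.7 CPM. All 3 were high in REH and low in the others, like ELK3. Nearest to SPIB was LOC100233209, with 26.1, 9.13, 14.1 and 1.33 CPM (distance 0.80), before ZNF426 (distance 1.25) and LSP1, a leukocyte actin-binding protein (distance 1.33). With a pseudocount of 1 CPM the nearest 3 shared 3 genes with this set for ELK3 and 1 for SPIB. The likeness rests on 4 libraries and 13843 candidate genes.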
